A study of Frankliniella occidentalis and Frankliniella intonsa with 9 samples.

Results

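The protein-coding genes of the mitochondrial genome were followed through antennae of 1 day old adult thrips, in 3 libraries of female Frankliniella intonsa, 3 of male Frankliniella occidentalis (the western flower thrips) and 3 of female F. occidentalis. No treatment and no genetic modification is named for any group. Members were the assembled genes that carry a listed protein domain of a mitochondrially encoded subunit and whose best database match is an animal. The rule found 50 of the 48889 assembled genes in the table, and they fall to 7 subunits. COX1 has 12 of them, ND1 10, CYTB 7, ATP6 6, COX2 6, ND4L 5 and COX3 4. Another 2 assembled genes had a listed domain without a matched organism and were left out. Values are in TPM, a level per transcript length scaled to the library, and the values of all members of a subunit were added within each library. Nothing in the labels tells whether a replicate is a separate collection of antennae, and p-values therefore cover only the spread among libraries, which may be technical. TPM keeps no read numbers, so depth is unknown and no counting interval is given.

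Mitochondria keep a small circular genome of their own, which encodes a few core subunits of the machinery of oxidative phosphorylation, while most subunits are encoded in the nucleus and imported. COX1, COX2 and COX3 form the catalytic core of cytochrome c oxidase (complex IV), which passes electrons to oxygen. The ND genes encode membrane subunits of NADH dehydrogenase (complex I), CYTB encodes cytochrome b of complex III, and ATP6 encodes the subunit a of ATP synthase (complex V) that forms part of its proton path. In animals the genome is transcribed as long precursors that are cut into single messages, so levels of the messages can differ although they share transcripts.

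The label covers more genes than the rule reached. No assembled gene carried the domains Cytochrom_B_N, Oxidored_q1 or Oxidored_q3, and the assembled genes of ND2, ND4, ND5 and ND6 carried other domain names or none. A search of product wording found 22 more mitochondrial assembled genes, which were kept apart and are given after the members. Of the 50 members, 24 were matched to thrips, 11 to pigs or the warthog, 4 to human, 4 to Caenorhabditis elegans, 3 to the water flea Daphnia magna and 4 to other animals (the antelope Pantholops hodgsonii and the ant Vollenhovia emeryi). These last 4 are all COX1, and their Swiss-Prot matches are to bacterial oxidases, with a highest level of 75.1 TPM in F. intonsa library 2. Thrips matches exist for COX1, COX2, COX3, CYTB, ND1 and ATP6. None exists for ND4L, whose 5 members are 3 hypothetical proteins of Daphnia magna, 1 human and 1 pig match found by the domain Oxidored_q2 alone, so the name ND4L here stands for that domain.

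The F. intonsa libraries stood apart from the others and from each other. Assembled genes without a database match took 84.3%, 43.7% and 91.6% of TPM in F. intonsa libraries 1, 2 and 3, against 25.0% to 27.9% in F. occidentalis males and 23.0% to 25.5% in F. occidentalis females. Matched genes whose annotation names WN48_00612 took 0.00237%, 1.61% and 0.000598% of TPM in F. intonsa libraries 1, 2 and 3. They took 26.1% to 32.4% in F. occidentalis males and 24.8% to 27.7% in F. occidentalis females. Spearman's correlation between replicates over all assembled genes ran 0.296 to 0.571 in F. intonsa, 0.789 to 0.857 in F. occidentalis males and 0.897 to 0.914 in F. occidentalis females. Odorant-binding proteins, markers of antennae, summed to 1203, 4479 and 201 TPM in F. intonsa, 2616 to 6225 TPM in F. occidentalis males and 2728 to 3739 TPM in F. occidentalis females. A muscle list of myosin, actin, troponin and tropomyosin wording summed to 768, 34617 and 346 TPM in F. intonsa libraries 1, 2 and 3. It summed to 42860, 22294 and 24477 TPM in F. occidentalis males 1, 2 and 3, against 37361, 36444 and 56499.8 TPM in F. occidentalis females. Levels, shares and ranks of F. intonsa are given per library, and the total and the fitted species differences also without library 2.

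Together the 7 subunits summed to 3918, 5929 and 1991 TPM in F. intonsa libraries 1, 2 and 3, to 6773, 8121 and 7142 TPM in F. occidentalis males, and to 9182, 11369.9 and 9641 TPM in F. occidentalis females. That was 0.202% to 0.617% of a library's TPM in F. intonsa, 0.715% to 0.868% in F. occidentalis males and 0.958% to 1.19% in F. occidentalis females. The 3 groups did not overlap, and F. occidentalis females were highest. The ratio of geometric means was 0.731 for males against females of F. occidentalis and 0.358 for F. intonsa against F. occidentalis females. Each had an exact two-sided permutation p of 0.1, the smallest that 3 against 3 libraries allow, so neither difference can pass 0.05. TPM was also rescaled to assembled genes with a database match, without those naming WN48_00612. Under that rescaling the species difference shrank from a log2 ratio of -1.48 to -0.16 and the sex difference from -0.45 to -0.25. A rescaling to all matched genes was not run, so the part of the genes naming WN48_00612 in these shifts was not tested. Without F. intonsa library 2 the species log2 ratio was -1.84. In bulk antennae, fewer cells rich in mitochondria and less mitochondrial RNA per cell cannot be told apart.

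COX1, the subunit that holds the oxygen-reducing centre of complex IV, was at 1574, 1758 and 487 TPM in F. intonsa, at 2782, 2873 and 2558 TPM in F. occidentalis males, and at 3086, 4396 and 4243 TPM in F. occidentalis females. COX3, a core subunit beside it in the membrane, was at 382, 705 and 254 TPM in F. intonsa, at 2732, 2692 and 2667 TPM in F. occidentalis males, and at 3876, 4378 and 3496 TPM in F. occidentalis females. In both subunits the 3 groups were separate, with F. intonsa lowest and F. occidentalis females highest. COX2, which takes electrons from cytochrome c, was at 299.5, 980.3 and 226 TPM in F. intonsa, at 550.3, 1128 and 949 TPM in F. occidentalis males, and at 1012, 1093 and 811 TPM in F. occidentalis females. Males and females of F. occidentalis overlapped in COX2, and F. intonsa library 2, more than 3 times its companions, lay within the F. occidentalis range while those lay below it.

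ND1, which lies near the quinone site of complex I, was at 516, 886 and 313 TPM in F. intonsa, at 325, 621 and 416 TPM in F. occidentalis males, and at 488, 692 and 537 TPM in F. occidentalis females. The groups overlapped, and the F. intonsa mean of 571 ± 290.4 TPM lay beside the F. occidentalis female mean of 572 ± 106 TPM (SD, n = 3 each). Cytochrome b of complex III, CYTB, was at 166, 348 and 179.9 TPM in F. intonsa, at 205, 424 and 248 TPM in F. occidentalis males, and at 286, 529 and 305 TPM in F. occidentalis females. CYTB also overlapped between groups. Library 2 was the highest of its group in all 3 groups for CYTB, ND1, COX1, COX2, ATP6 and the total, but not for COX3 and ND4L.

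ATP6 was the one subunit that was higher in every F. intonsa library than in every F. occidentalis library. It was at 941, 998 and 515 TPM in F. intonsa, at 156, 304 and 217 TPM in F. occidentalis males, and at 211, 244 and 228 TPM in F. occidentalis females. Males and females of F. occidentalis overlapped. The domain labelled ND4L was the lowest and the least even, at 39.3, 254 and 16.0 TPM in F. intonsa, at 21.8, 78.9 and 87.2 TPM in F. occidentalis males, and at 222, 38.0 and 21.7 TPM in F. occidentalis females. A single Daphnia-matched assembled gene, TRINITY_DN46660_c0_g1, held 192 of the 222 TPM in F. occidentalis female 1 and 96.7 TPM in F. intonsa library 2, and 1.09 to 18.8 TPM in the other libraries.

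**Figure D1:**
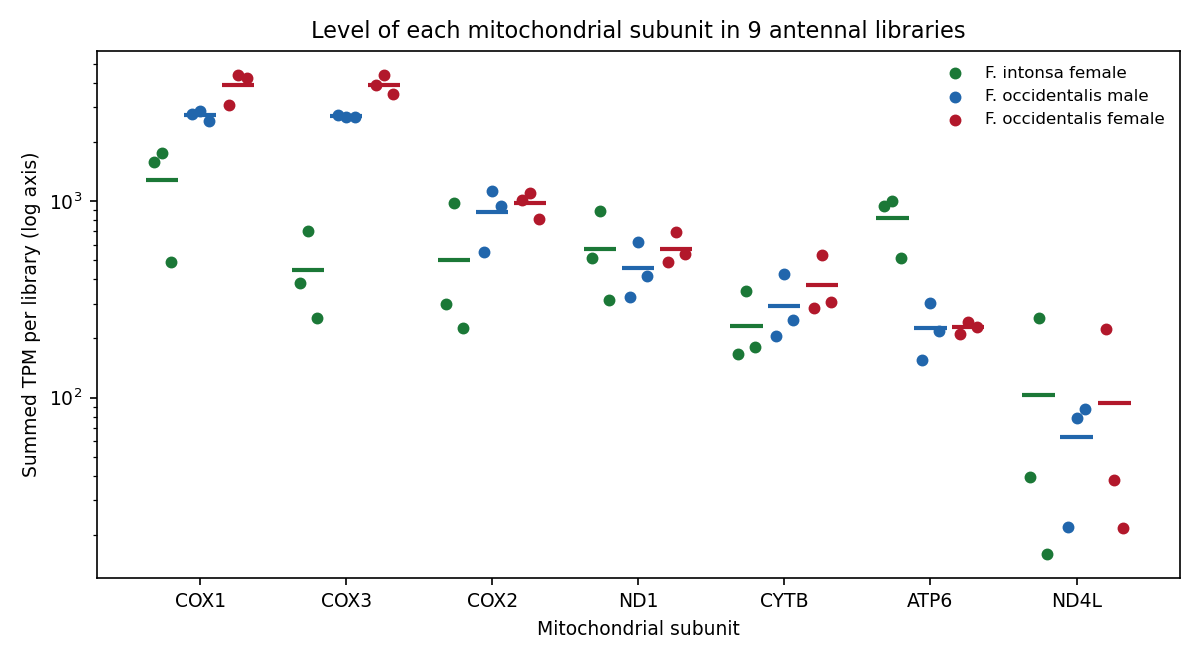
Summed TPM of each mitochondrial subunit (log axis) in F. intonsa females, F. occidentalis males and F. occidentalis females; points are libraries and bars are group means (n = 3 each). COX3 lies at 254 to 705 TPM in F. intonsa and at 2667 to 4378 TPM in F. occidentalis, while ATP6 lies at 515 to 998 TPM in F. intonsa and at 156 to 304 TPM in F. occidentalis.

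The first question the design poses is how male and female F. occidentalis antennae differ. None of the 7 subunits passed the test between the sexes (limma-trend, adjusted p of 0.05 over 22005 tested), where 1.89% of all tested assembled genes were called. No subunit had an unadjusted p below 0.05, against 15.5% of all tested. COX3 differed by -0.53 on the log2(TPM + 1) scale in males (SE 0.26, 95% interval -1.12 to 0.05, adjusted p = 0.374). COX1 differed by -0.50 (SE 0.28, 95% interval -1.12 to 0.12, adjusted p = 0.444). These were the 2 subunits whose male and female libraries did not overlap, both lower in all 3 males, where 20.1% of all tested assembled genes did not overlap and 6.83% were lower without overlap. The fitted differences of the other subunits were -0.37 for ND1, -0.36 for CYTB, -0.20 for COX2, -0.10 for ND4L and -0.06 for ATP6. Over all tested assembled genes the median difference was 0.19, so each of the 7 subunits lay below it. The median moved to -0.02 after quantile normalization and to 0.39 after rescaling to matched genes without those naming WN48_00612. COX1, COX3, CYTB and ND1 kept a negative sign under both, but shrank to -0.09, -0.15, -0.12 and -0.10 after quantile normalization, while ATP6 and COX2 turned positive under both and ND4L under the rescaling. The intervals of COX1 and COX3 reach -1.12, so the failed tests do not show equal levels. A fat body list of vitellogenin, hexamerin and apolipophorin wording summed to 88.3, 156 and 86.9 TPM in males against 10484, 12465 and 6664 TPM in females, and its part in the sex differences was not tested.

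The second question is how the 2 species differ. F. intonsa females against F. occidentalis females gave 2 calls among the 7 subunits (limma-trend, over 21201 tested), where 85.4% of all tested assembled genes were called (17% higher and 68.4% lower in F. intonsa). Of the 18127 calls in the fit of single assembled genes, 81.8% had no TPM in any library of one species, with 11670 at 0 throughout F. intonsa and 3165 throughout F. occidentalis females. Subunit sums join the fragments of both species. In F. intonsa COX3 fell by 3.25 on the log2(TPM + 1) scale (SE 0.75, 95% interval -5.15 to -1.35, adjusted p = 0.00882). ATP6 rose in F. intonsa by 1.79 (SE 0.59, 95% interval 0.29 to 3.28, adjusted p = 0.0330). With 85.4% of all tested called, the adjustment changed p little. The unadjusted p in limma-trend was 0.00656 for COX3 and 0.0275 for ATP6. COX1 was lower in all 3 F. intonsa libraries at -1.80 (SE 0.89, adjusted p = 0.106) and did not pass the test. It did pass with pseudocounts of 0.1 (adjusted p = 0.0422) and 10 (adjusted p = 0.0318), without a trend (adjusted p = 0.0246) and with sums weighted by fragment length (adjusted p = 0.0444). COX1 shrank to -0.48 when TPM was rescaled to matched genes without those naming WN48_00612. COX3, ATP6 and COX1 were the subunits whose libraries did not overlap between the species, as 86.6% of all tested did not. COX2 at -1.25 (adjusted p = 0.198), CYTB at -0.71 (adjusted p = 0.319), ND1 at -0.11 (adjusted p = 0.885) and ND4L at -0.06 (adjusted p = 0.970) overlapped between species. These 4 turned positive under that rescaling.

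Both calls had the same sign under each alternative, but not each alternative kept them. Without F. intonsa library 2, COX3 was at -3.64 (adjusted p = 0.00236) and ATP6 at 1.61 (adjusted p = 0.0137). In that same fit COX2 was called as well, at -1.89 (adjusted p = 0.00825), while COX1 at -2.14 (adjusted p = 0.0576), CYTB at -1.05 (adjusted p = 0.0553), ND1 at -0.49 (adjusted p = 0.333) and ND4L at -1.15 (adjusted p = 0.349) were not. Without F. intonsa library 1, COX3 at -3.20 (adjusted p = 0.121) and ATP6 at 1.65 (adjusted p = 0.0931) lost their calls. ATP6 also lost its call without F. occidentalis female 1, 2 or 3 (adjusted p = 0.289, 0.280 and 0.272), and COX3 without female 2 (adjusted p = 0.0558). In these 3 fits ATP6 stayed at 1.73 to 1.84, with an SE of 1.28 to 1.35. Genes at 0 throughout F. intonsa cannot pass the filter of 3 libraries there, and 7781 to 7804 were tested, against 21201. Quantile normalization ended the ATP6 call too (adjusted p = 0.0601), and without a filter on low values neither passed (adjusted p = 0.526 for ATP6 and 0.810 for COX3). After rescaling to matched genes without those naming WN48_00612, ATP6 stood at 3.11 (adjusted p = 0.00525) and COX3 at -1.93 (adjusted p = 0.00983). With thrips matches alone, ATP6 was at 1.67 (adjusted p = 0.0442) and COX3 at -3.40 (adjusted p = 0.00823).

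**Figure D2:**
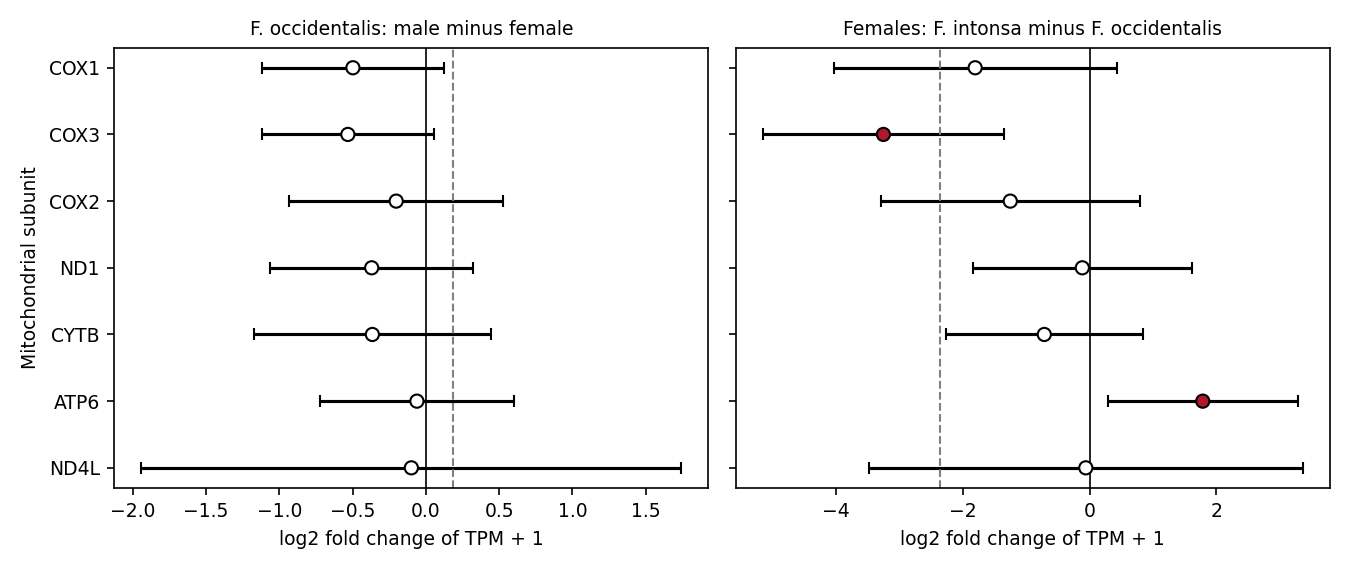
Log2 fold change of TPM + 1 for each subunit, for F. occidentalis males minus females (left) and F. intonsa minus F. occidentalis females (right), with 95% intervals from limma-trend. Filled points passed an adjusted p of 0.05, which holds for COX3 at -3.25 and ATP6 at 1.79 in the species comparison, and the dashed lines mark the medians of all tested assembled genes at 0.19 and -2.35.

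The make-up of the mitochondrial sum does not move with the scaling of a library, and it separated the species. ATP6 took 24.0%, 16.8% and 25.9% of the mitochondrial TPM in F. intonsa libraries 1, 2 and 3, against 2.30%, 2.14% and 2.36% in F. occidentalis females. COX3 took 9.75%, 11.9% and 12.7% in F. intonsa, against 42.2%, 38.5% and 36.3% in F. occidentalis females. ND1 took 13.2%, 14.9% and 15.7% in F. intonsa, against 5.32%, 6.09% and 5.57% in F. occidentalis females. In these 3 of the 7 subunits the species did not overlap in share. F. intonsa library 2 lay between its companions in the shares of COX3 and ND1 and below both in that of ATP6. The shares of COX1, COX2, CYTB and ND4L overlapped. Each of the 3 separated shares had an exact two-sided permutation p of 0.1, the smallest possible, and 0.233 after adjustment over the 7 subunits.

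By complex, the 3 cytochrome c oxidase subunits held 57.6%, 58.1% and 48.6% of the sum in F. intonsa, against 86.8%, 86.8% and 88.7% in F. occidentalis females. Complex I, here ND1 and the domain labelled ND4L, held 14.2%, 19.2% and 16.5% in F. intonsa, against 7.74%, 6.42% and 5.79% in F. occidentalis females. Complexes I, IV and V separated the species and complex III did not (exact p = 0.1 each for the 3, 0.133 adjusted over 4 complexes). Between the sexes no share separated the groups among the 7 subunits, although leaving out male 1 separated 2 and leaving out female 3 separated 1. Complex IV held 89.5%, 82.4% and 86.4% of the sum in F. occidentalis males, around the values of the females.

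**Figure D3:**
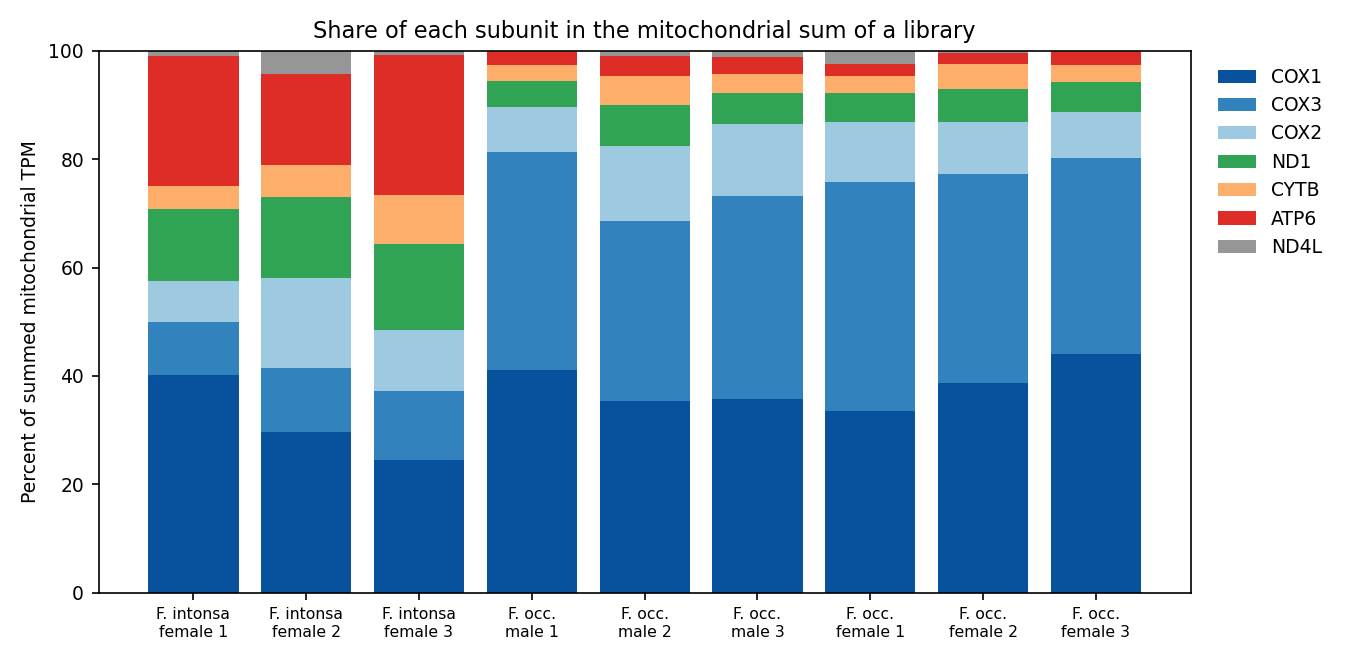
Percent of the summed mitochondrial TPM held by each subunit in each of the 9 libraries, with F. intonsa females, F. occidentalis males and F. occidentalis females from left to right. ATP6 takes 16.8% to 25.9% of the bars of F. intonsa and 2.14% to 3.74% of those of F. occidentalis.

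Ranked within a library, the subunits of F. occidentalis kept nearly 1 order. COX1 and COX3 shared the top: COX1 was higher in 4 of 6 libraries and the mean log2 ratio was 0.00 (exact sign-flip p = 0.969). Below them, COX3 exceeded COX2 by 3.61 times, COX2 exceeded ND1 by 1.81 times, ND1 exceeded CYTB by 1.57 times and CYTB exceeded ATP6 by 1.42 times, each in 6 of 6 libraries. Each of these 4 steps had an exact two-sided sign-flip p of 0.0312, the smallest that 6 libraries allow, and 0.0469 after adjustment over 6 neighbouring pairs. ATP6 lay above the domain labelled ND4L in 5 of 6 libraries (exact p = 0.0625, adjusted 0.075). Levels per length of assembled fragments carry the assembly's own lengths, so the order is one of these summed TPM values. ND1 is the clearest case, since its sum can count 1 transcript more than once. It is spread over 3 fragments of 465 to 618 bases in F. occidentalis and 4 of 317 to 649 bases in F. intonsa. Between the fragments of highest mean, its step over CYTB turned around. The CYTB fragment, at 202 to 526 TPM, lay above the ND1 fragment, at 147 to 346 TPM, in each F. occidentalis library.

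In F. intonsa another order held. ATP6 had rank 2, 2 and 1 in libraries 1, 2 and 3, counted from the highest level, while in F. occidentalis it had rank 6 in 5 libraries and rank 7 in 1. COX3 had rank 4, 5 and 4 in F. intonsa and rank 1 or 2 in each F. occidentalis library. Of the 21 pairs of subunits, 5 stood in 1 order in all 3 F. intonsa libraries and in the opposite order in all 6 F. occidentalis libraries. These were ATP6 above COX2, COX3, CYTB and ND1, and ND1 above COX3, in F. intonsa. Each had an exact p of 0.1 between the females of both species and 0.175 adjusted over 21 pairs. These orders rest on sums over fragments. The ND1 fragment of highest mean, at 324, 585 and 149.5 TPM, lay below that of COX3, at 336, 627 and 209 TPM. Among the 5 pairs, only ATP6 above CYTB held in all 3 F. intonsa libraries between such single fragments. CYTB had rank 6 in each F. intonsa library and rank 5 in each F. occidentalis library.

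Behind the sums, the thrips-matched assembled genes belonged mostly to 1 species. Of the 24, 12 had their higher mean in F. intonsa and 12 in F. occidentalis, and 10 of each were listed at 0 in each library of the other species. COX3 in F. occidentalis rested on TRINITY_DN41223_c0_g4, at 2667 to 4378 TPM there, and in F. intonsa mainly on TRINITY_DN41223_c0_g6, at 336, 627 and 209 TPM. ATP6 in F. occidentalis was split over TRINITY_DN41223_c0_g13, at 94.5 to 187 TPM, and TRINITY_DN41223_c0_g18, at 61.7 to 117 TPM. COX3 and ATP6 of F. occidentalis carry the same assembly cluster name. ATP6 in F. intonsa was split over TRINITY_DN44215_c2_g15, at 314, 853 and 200.2 TPM in libraries 1, 2 and 3, and TRINITY_DN44215_c2_g5, at 575, 91.4 and 252.5 TPM. Library 2 was thus the highest in the first fragment and the lowest in the second, and its ATP6 sum lay close to that of library 1.

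COX2 rested on TRINITY_DN46726_c0_g10 in F. occidentalis, at 483 to 1047 TPM, and on TRINITY_DN46734_c0_g14 in F. intonsa, at 265, 934 and 182 TPM. ND1 was led by TRINITY_DN43672_c0_g12 in F. occidentalis, at 147 to 346 TPM, and by TRINITY_DN43672_c0_g8 in F. intonsa, at 324, 585 and 149.5 TPM. COX1 was the exception to the split between species. TRINITY_DN45074_c0_g6 was found in F. occidentalis alone, at 1749 to 2930 TPM, and TRINITY_DN45074_c0_g12 in F. intonsa alone, at 1286, 985 and 403 TPM. TRINITY_DN45074_c0_g3 had TPM in both, at 213, 671 and 53.2 in F. intonsa, 1023, 613 and 588 in F. occidentalis males, and 1092, 1547 and 1304 in F. occidentalis females. How reads were divided between such similar fragments cannot be read from the table, so single COX1 fragments are uncertain where the sum is less so.

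Cytochrome b carried its species names crosswise. TRINITY_DN46774_c1_g2, whose best match is annotated as F. intonsa, was at 0.75, 2.40 and 3.14 TPM in F. intonsa libraries, at 202, 366 and 244 TPM in F. occidentalis males and at 283, 526 and 302 TPM in F. occidentalis females. TRINITY_DN46774_c1_g1, whose match is annotated as F. occidentalis, was at 159, 338 and 169 TPM in F. intonsa and at 1.51 to 4.49 TPM in F. occidentalis. The matched species and the species of the libraries thus disagree for both main CYTB fragments, while the other 22 thrips matches had their higher mean in the species they name.

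**Figure D4:**
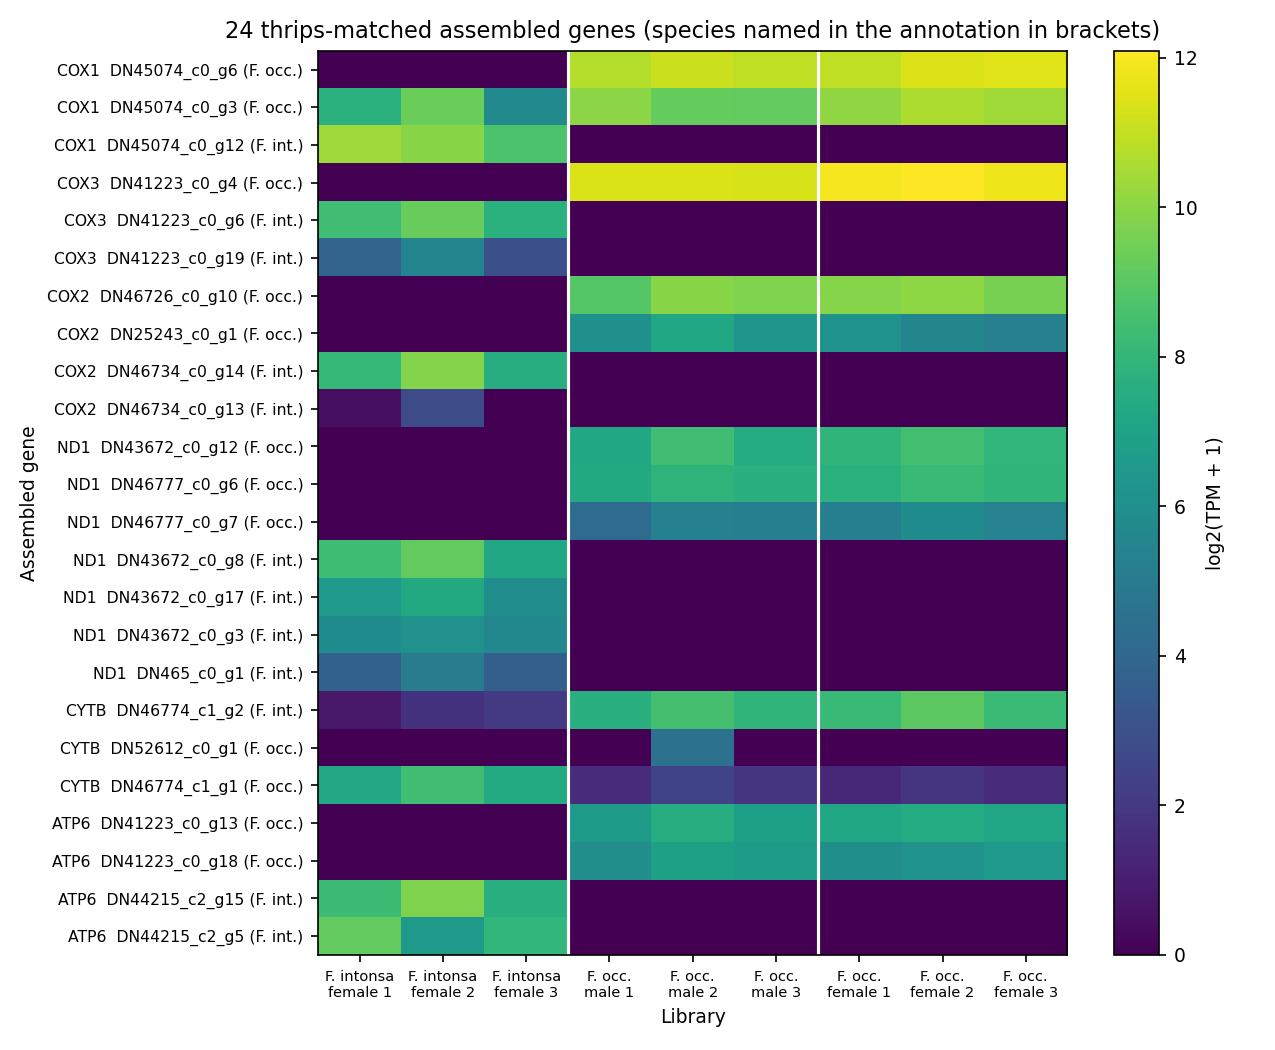
Log2(TPM + 1) of the 24 thrips-matched mitochondrial assembled genes in 9 libraries, F. intonsa females, F. occidentalis males and F. occidentalis females from left to right, with the species of the best match in brackets. Most fragments are bright in 1 species and at 0 in the other, and the 2 main CYTB fragments are bright in the species that their match does not name.

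Tested singly, 17 of the 50 members passed the filter of at least 1 TPM in 3 libraries of the sex comparison and 0 were called, with 2 at an unadjusted p below 0.05. Over the whole table of single assembled genes, 1.89% were called between the sexes and 15.5% had an unadjusted p below 0.05. In the species comparison 37 of the 50 passed the filter, and 22 were higher and 11 lower in F. intonsa, where 85.4% of all tested were called, 17.1% higher and 68.3% lower. A member listed at 0 in one species had to differ, so these counts describe the split of the assembly.

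Matches to animals other than thrips made up the whole ND4L sum and a varying part of the others. In F. intonsa they held 2.33% to 19.4% of a subunit's sum in a library, most in COX2 of library 3. In F. occidentalis they held at most 7.64%, in CYTB of male 2. The 11 pig and warthog matches, which cover COX1, COX2, COX3, CYTB, ND1, ATP6 and the domain labelled ND4L, summed to 189, 198 and 226 TPM in the 3 F. intonsa libraries and to at most 0.17 TPM in any F. occidentalis library. The largest of them, an ATP6 match (TRINITY_DN34606_c0_g5), was at 49.7, 46.6 and 52.3 TPM. This set differed little between F. intonsa libraries, while the thrips-matched sum was 3646, 5399 and 1749 TPM there. The 3 water flea matches summed to 32.9, 254 and 10.6 TPM in F. intonsa, 21.8 to 87.2 TPM in F. occidentalis males and 21.7 to 222 TPM in F. occidentalis females. The 4 matches to other animals summed to 50.2, 78.8 and 5.80 TPM in F. intonsa, 8.10 to 31.2 TPM in F. occidentalis males and at most 12.35 TPM in F. occidentalis females. The 4 human matches summed to 35.6 TPM in F. occidentalis male 2 and to at most 0.73 TPM elsewhere. The 4 nematode matches summed to 32.6 TPM in the same male, 1.28 to 5.82 TPM in the other F. occidentalis libraries and 0 in F. intonsa. With thrips matches alone, the sums were 6739.7 to 7969.6 TPM in F. occidentalis males and 8942 to 11320 TPM in F. occidentalis females, still without overlap.

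Subunits of complex I outside the rule showed species differences of both signs. They were chosen after their values were seen, and only their thrips matches are given. ND5 was at 623, 155 and 368 TPM in F. intonsa, at 10.1, 49.8 and 25.8 TPM in F. occidentalis males, and at 14.7, 33.2 and 25.1 TPM in F. occidentalis females. ND2 was at 94.0, 51.5 and 302 TPM in F. intonsa, at 7.80, 56.8 and 29.4 TPM in F. occidentalis males, and at 12.0, 25.9 and 20.5 TPM in F. occidentalis females. Both were higher in each F. intonsa library than in each F. occidentalis female. ND6 was at 29.7, 52.2 and 8.07 TPM in F. intonsa, at 87.6, 179 and 149 TPM in F. occidentalis males, and at 141, 181 and 154 TPM in F. occidentalis females. ND4 was at 1349.9, 507 and 1013 TPM in F. intonsa, at 636, 1309 and 939 TPM in F. occidentalis males, and at 857, 1549 and 1292 TPM in F. occidentalis females. ND6 was lower in each F. intonsa library, and ND4 overlapped between groups.

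With all matches summed, ND5 rose in F. intonsa against F. occidentalis females by 3.78 (SE 0.69, adjusted p = 0.00330) and ND2 by 2.65 (SE 0.74, adjusted p = 0.0177) on the log2(TPM + 1) scale. ND6 fell by 2.69 (SE 0.74, adjusted p = 0.0166), and ND4 was at -0.38 (adjusted p = 0.649). ND3, in the same fit, was higher by 3.51 (adjusted p = 1.56e-05) on a pig match alone, with no thrips match, at 8.48, 12.1 and 10.9 TPM in F. intonsa and 0 in each F. occidentalis library. Leaving out a single F. occidentalis female ended the calls of ND5 (adjusted p = 0.0683 to 0.0944), ND2 (adjusted p = 0.175 to 0.249) and ND6 (adjusted p = 0.180 to 0.217), while leaving out any F. intonsa library kept them. Without a female, ND5 stayed at 3.47 to 4.03, ND2 at 2.35 to 2.87 and ND6 at -2.78 to -2.60, with SE of 1.57 to 1.66. Between the sexes ND2, ND4, ND5 and ND6 did not pass the test. Counting these genes in, complex I held 44.4%, 29.0% and 55.5% of the mitochondrial TPM in F. intonsa, against 17.0%, 19.1% and 18.4% in F. occidentalis females, and complex IV held 37.3%, 51.1% and 25.9% in F. intonsa, against 78.1%, 75.0% and 76.8% in F. occidentalis females.

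F. intonsa library 2 differed from its companions in a way that divided the thrips-matched mitochondrial genes. Matches to other animals were not counted here. Among the 12 thrips-matched member fragments of at least 10 TPM, library 2 was the highest of the 3 in 10 and in the middle in 1. It was the lowest in 1, which was TRINITY_DN44215_c2_g5 of ATP6. Among the 6 such fragments of ND2, ND4, ND5 and ND6, it was the lowest in 5, all of ND2, ND4 and ND5, and the highest in the ND6 fragment. How often library 2 was the highest over all assembled genes was not counted. In F. intonsa libraries 1, 2 and 3, 16360, 28515 and 10556 assembled genes had TPM above 0. The muscle list and the share of genes without a match also set library 2 apart, as given above, and their part in this division was not tested.

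**Figure D5:**
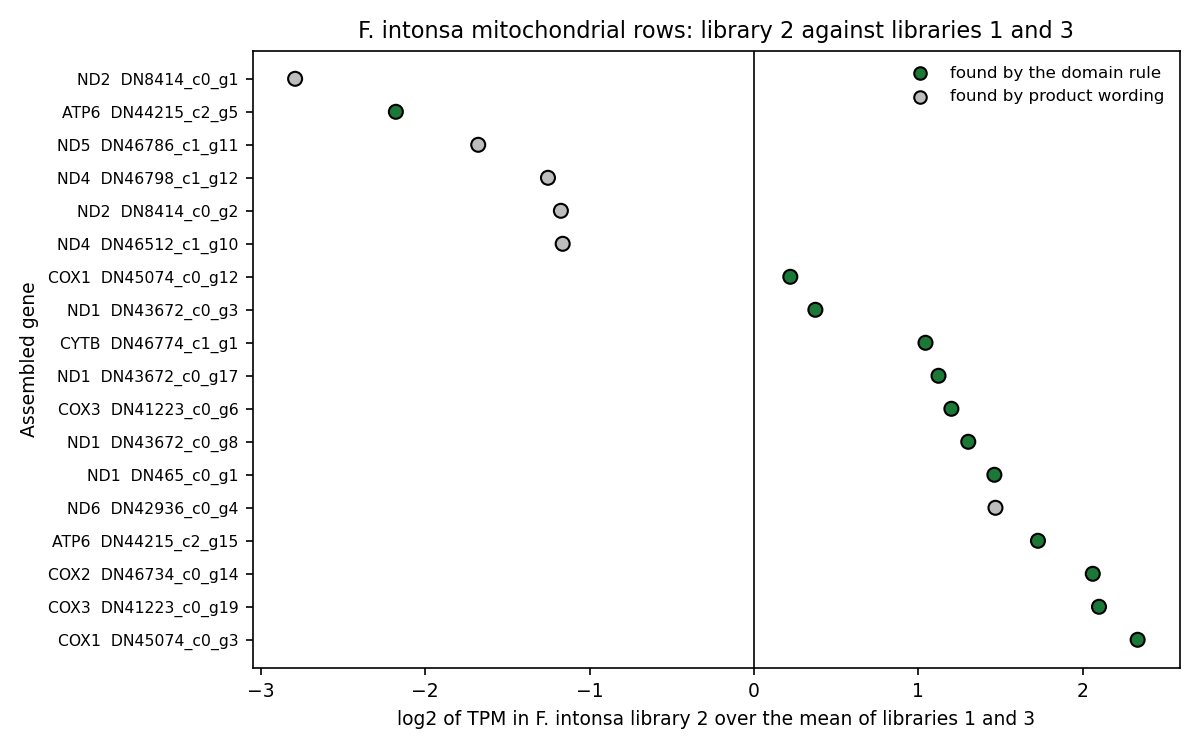
Log2 of TPM in F. intonsa library 2 over the mean of libraries 1 and 3, for each thrips-matched mitochondrial assembled gene of at least 10 TPM in F. intonsa. Members are in green and genes found by product wording in grey. Of the 12 members shown 11 lie right of 0, and 5 of the 6 others lie left of it.

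Nuclear genes of the same machinery were read from lists by annotation wording. Between the sexes, 1 of 120 tested nuclear genes of complexes I to V and cytochrome c was lower in males and 0 were higher (limma-trend). Over all tested, 0.918% were called lower and 0.968% higher. Of the 120, 34 had an unadjusted p below 0.05, against 15.5% of all tested. The median log2 difference of the 120 was -0.53, against 0.19 over all genes tested. The call was TRINITY_DN45072_c1_g5, an ATP synthase epsilon chain, at 84.3 ± 34.7 TPM in males and 305 ± 45.5 TPM in females (SD, n = 3 each; log2 difference -1.92, SE 0.34, adjusted p = 0.0316), and it was lost without male 3 or any female. The most abundant ones named by rule did not pass. Cytochrome c oxidase subunit 6A (TRINITY_DN40199_c0_g4) was at 4142 ± 1642 TPM in males and 5588 ± 328 TPM in females. The lipid-binding subunit of ATP synthase (TRINITY_DN42686_c0_g4) was at 4309 ± 959 TPM in males and 6026 ± 649 TPM in females.

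Summed, the nuclear genes of oxidative phosphorylation held 54232, 37723 and 37264 TPM in F. occidentalis males 1, 2 and 3, against 59146, 59691 and 66320.1 TPM in F. occidentalis females. Males 2 and 3 were also the lowest F. occidentalis libraries in the muscle list, and the part of muscle in this was not tested. Mitochondrial over nuclear TPM of complex IV was 0.476, 0.274 and 0.466 in F. intonsa, 0.471, 0.790 and 0.775 in F. occidentalis males, and 0.568, 0.724 and 0.600 in F. occidentalis females. Male 1 was the lowest F. occidentalis library and males 2 and 3 the highest, so the sexes overlapped (exact p = 0.8), and the F. intonsa libraries were below the F. occidentalis females (exact p = 0.1, the smallest possible). For complex V the ratio was 0.131, 0.0314 and 0.344 in F. intonsa, 0.00749 to 0.0211 in F. occidentalis males and 0.00847 to 0.0106 in F. occidentalis females, higher in each F. intonsa library (exact p = 0.1). For complex I, here ND1 and the domain labelled ND4L, it was 0.0939, 0.0900 and 0.177 in F. intonsa, 0.0354 to 0.0971 in F. occidentalis males and 0.0472 to 0.0696 in F. occidentalis females, also higher in each F. intonsa library than in the females (exact p = 0.1). For complex III the species overlapped (exact p = 0.8). For all complexes together the ratio was 0.0813 to 0.265 in F. intonsa and 0.145 to 0.190 in F. occidentalis females, and they overlapped (exact p = 0.9).

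The genes that express and maintain the mitochondrial genome gave no call between the sexes in limma-trend. Over all tested 1.89% were called and 15.5% had an unadjusted p below 0.05. None was called among 124 mitochondrial ribosomal proteins (median -0.21, 7 at an unadjusted p below 0.05), 17 genes of mitochondrial transcription, RNA processing and DNA maintenance (median -0.03, 0 so), 8 mitochondrial translation factors (median -0.19, 0 so) and 24 assembly factors of complexes I and IV (median -0.13, 3 so). Mitochondrial single-stranded DNA-binding protein, which coats mitochondrial DNA during copying, was at 54.1 ± 11.2 TPM in males and 64.8 ± 7.82 TPM in females (SD, n = 3 each). Of 23 porins and carriers 3 were higher in males and 0 lower, where 0.968% of all tested were called higher. All 3 were ADP,ATP carriers whose Swiss-Prot match is to Paranosema grylli, a microsporidian parasite of insects. Their best database match is the insect Papilio xuthus. The one of smallest adjusted p, TRINITY_DN53925_c0_g1, was at 18.1 ± 5.99 TPM in males and 2.71 ± 0.81 TPM in females (adjusted p = 0.0208). The carrier of highest level, TRINITY_DN44778_c0_g1, was at 2437 ± 783 TPM in males and 3335 ± 462 TPM in females and did not pass. None of 45 muscle genes and none of 11 odorant-binding proteins was called (7 and 0 at an unadjusted p below 0.05), while 35 of 44 fat body genes were lower in males, against 0.918% of all tested.

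In the species comparison 83 of 197 tested nuclear genes of oxidative phosphorylation were higher and 100 lower in F. intonsa, 35 of 155 mitochondrial ribosomal proteins were higher and 115 lower, and 3 of 19 transcription and maintenance genes were higher and 16 lower. The called shares were 92.9%, 96.8% and 100%, against 85.4% over all single genes tested. Higher calls made up 42.1%, 22.6% and 15.8% of those tested, against 17.1% over all. Nuclear lists were not summed per subunit, so these counts carry the split of the assembly between species.

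Over the 6 F. occidentalis libraries, the 5 assembled genes whose log2(TPM + 1) followed the log2 of the mitochondrial sum most closely, among 2995 named genes of at least 10 TPM, included 2 vitellogenins, the yolk precursors. Pearson's r was 0.993 for TRINITY_DN46805_c2_g5, a vitellogenin-like gene at 41.9, 55.5 and 48.0 TPM in males and 70.3, 116 and 83.9 TPM in females. It was 0.988 for an N-acetyltransferase matched to san of Drosophila, 0.974 for the catalytic subunit of protein phosphatase 6, 0.970 for a 1,5-anhydro-D-fructose reductase and 0.969 for a second vitellogenin. Each is given as a description over 6 libraries of 2 sexes, picked as the highest of many.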

How the data were processed

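RNA of antennae was sequenced in 9 libraries of 3 groups. According to the labels' protocols, template switching on small amounts of total RNA gave cDNA that PCR amplified. Salmon, cutadapt and FastQC are the tools that the submitters' processing notes name, and no assembler or version is given there. What the authors deposited is a single table of TPM beside annotation text, whose unit is inferred from totals of 935518 to 987791 per column and from the use of Salmon. The lowest row maximum is 5.01 TPM, so genes low in every library are absent, and depth is unknown. Of its value columns, 0 lacked a sample. No genome or sequence was used.

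Member values were summed per subunit in each library. The whole table, with sums in place of the members, was tested by limma-trend on log2(TPM + 1), using limma 3.58.1 under R 4.3.3. Genes needed at least 1 TPM in at least 3 libraries of a comparison. Adjustment was by Benjamini-Hochberg over all assembled genes tested. Fold changes on this scale understate those of low genes. The fit was also run on data simulated from F. occidentalis female means with the same spread for every gene. Those data lacked the spread among F. intonsa libraries, so that run does not cover the species fit. Shares, totals and orders were compared by exact two-sided permutation tests (scipy 1.17.1, Python 3.11.15). The members and lists were chosen with earlier results of these data known. Every subunit is named; of assembled genes, the one of highest mean per subunit in each species, the 2 highest and up to 3 called of each nuclear list, of which a selection is printed, and the 5 most like the mitochondrial sum. Replicate numbers did not pair libraries (correlation of same-numbered deviations -0.06 to 0.05), although library 2 was the highest of each group in the mitochondrial total.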

Additional observations from a re-analysis of the deposited data

Results flagged for a closer look

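Pairs of subunits were picked out where each F. intonsa library had one order and each F. occidentalis library the opposite one. ATP6 was above COX2 in 3 of 3 F. intonsa libraries and in 0 of 6 F. occidentalis libraries, with a log2 ratio of 0.03 to 1.65 in F. intonsa and -2.26 to -1.82 in F. occidentalis (exact p = 0.1 against F. occidentalis females). ATP6 above COX3 had log2 ratios of 0.50 to 1.30 in F. intonsa and -4.20 to -3.15 in F. occidentalis (exact p = 0.1). ATP6 above CYTB had 1.52 to 2.50 in F. intonsa and -1.12 to -0.19 in F. occidentalis (exact p = 0.1). ATP6 above ND1 had 0.17 to 0.87 in F. intonsa and -1.51 to -0.94 in F. occidentalis (exact p = 0.1). COX3 against ND1 had -0.43 to -0.30 in F. intonsa and 2.12 to 3.07 in F. occidentalis (exact p = 0.1). The 5 pairs share subunits and are not independent, and 0.1 is the smallest p that 3 against 3 libraries allow. Between the fragments of highest mean, only ATP6 above CYTB held in each F. intonsa library, and ND1 lay below COX3 in each.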

How the results depend on the processing

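Between the sexes 0 subunits were called under every alternative run. Between the species the 2 calls became 0 without a filter on low values, 1 with quantile normalization, 0 under a replicate block, and 6 with the highest fragment in place of the sum, where that fragment belongs to 1 species by construction; leaving out 1 library gave 0 to 3. They became 3, with COX1 added, under pseudocounts of 0.1 and 10, without a trend and with length weights. Called single members between species (33) became 12 to 24 when 1 library was left out, since fewer passed the filter. The nuclear oxidative phosphorylation call became 0 with quantile normalization and 0 to 1 without 1 library. Subunits whose shares separated the species (3) became 6 with the highest fragment, 5 with sums weighted by fragment length, and 3 to 6 without 1 library; between the sexes (0) they became 1 with the genes outside the rule and 0 to 2 without 1 library. The 4 ordered neighbouring pairs became 3 to 4 under the other settings. They became 0 with 1 library left out, where 5 libraries allow no p below 0.0625.

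Signs that turned were of subunits not called. Between the sexes ATP6 was at 0.14 with quantile normalization and 0.14 with rescaling, COX2 at 0.070 and 0.0026, and ND4L at 0.11 with rescaling and 0.060 with length weights; without 1 library they ran -0.30 to 0.18, -0.42 to 0.10 and -0.78 to 0.87. Between the species rescaling put COX2 at 0.070, CYTB at 0.61, ND1 at 1.21 and ND4L at 1.24, and quantile normalization put ND4L at 0.78; without 1 library ND1 ran -0.49 to 0.26 and ND4L -1.15 to 0.91. The cause was not tested. The median of all genes in the species comparison moved from -2.35 to -0.20 with quantile normalization and to -2.85 with rescaling.

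Over the whole table the sex calls (415) became 208 with quantile normalization, 116 without a filter, 198 without a trend, 271 and 217 with pseudocounts of 0.1 and 10, and 18 to 285 without 1 library. The share of higher calls moved from 51.3% to 31.2% with quantile normalization and 66.6% with rescaling, and in the species comparison from 19.9% to 41.1% with quantile normalization. Species calls (18098) became 11000 with quantile normalization and 3339 to 16115 without 1 library. Under the replicate block the sex calls became 363 and the species calls 18074. Since numbers did not pair the libraries, the block is given only in this section. Thrips matches alone and the added genes were chosen after seeing the data. TPM holds no depth, and 3 libraries a group limit precision.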
